A study of Mus musculus with 39 samples.

Results

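Sik3 crRNA 8 was compared with the non-targeting (NT) crRNA in N2a cells, a mouse neuroblastoma line, by RNA-seq of poly(A)-enriched RNA. The comparison used 6 of the 39 libraries of the series, of which 30 came from wild-type (WT) N2a cells. These 6 were replicates 1, 2 and 3 of Sik3 crRNA 8 and NT replicates 1, 2 and 6, the NT libraries whose names place them in the same experiment set. Cells of both groups were WT and carried a plasmid for RfxCas13d and a plasmid for a crRNA, and were collected after 48 h, so the groups differed in the spacer of the crRNA. The labels call the target Sik3-SI, a short Sik3 transcript that the study set out to knock down without touching the long one.

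The deposited values are FPKM, which are fragment counts divided by gene length and library total. Estimated from their steps, the 6 libraries held 12338600 to 16270197 reads each, with 15372 to 16239 genes above 0. At this depth a single read on a gene of 100 bases was worth 0.615 to 0.810 FPKM. Library names also carry a series, LDK for replicates 1 and 2 of either group and LDL for crRNA 8 replicate 3 and NT replicate 6, and the series was a term in the model. The labels do not say that replicates came from separate cultures, so p-values measure only the spread between libraries of a group, which may be technical. In the model this spread was estimated over all 30 WT libraries, most of them outside this comparison. The labels name no sorting of transfected cells. Of 12 marker genes of N2a cells, 9 reached a mean of 1 FPKM over the WT libraries and could be tested. Among these, Tubb3 stood at 334 ± 8.97 FPKM with crRNA 8 and 381 ± 12.9 with NT (SD, n = 3 in each group, as throughout), and Hand2 at 211 ± 14.1 and 154 ± 8.11. The markers Th, Nefl and Nefm stayed under 1 FPKM in both groups. Of 20 markers of other cell types, 5 also reached 1 FPKM and were tested. Among these 0 rose and 0 fell, and 1 was lower at an unadjusted p under 0.05 in limma. All 20 summed to 13.4 to 13.7 FPKM with crRNA 8 and 11.9 to 15.1 with NT. Lum, Aqp4 and Epcam were at 0 in all 6 libraries.

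SIK3 is a serine/threonine kinase of the AMPK-related family. Its upstream kinase LKB1 (gene Stk11) switches it on, and protein kinase A phosphorylates it so that 14-3-3 proteins hold it back. Active salt-inducible kinases phosphorylate the CRTC coactivators of CREB and the class IIa histone deacetylases (HDACs), which keeps both out of the nucleus and CREB and MEF2 target genes low, and in mice SIK3 is known for its part in sleep need. RfxCas13d is an RNA-guided ribonuclease that binds an RNA matching the spacer of its crRNA and then cuts RNA.

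The spacers set the comparison, so they are shown with the site of crRNA 8. Spacers are given 5′ to 3′ in lower case, as the study lists them. In the sites, capitals mark the 22 bases of the transcript that pair with the spacer, with 4 flanking bases on either side.
NT spacer: tcaccagaagcgtaccatactc
Sik3 crRNA 8 spacer: gtcgctctgtgaatcaggcatc
Sik3 crRNA 8 site: gagaGATGCCTGATTCACAGAGCGACagtg
Sik3 crRNA 1 spacer: caagcactgccaggtgccacat
Sik3 crRNA 1 site: ggtaATGTGGCACCTGGCAGTGCTTGcaga
The site of crRNA 8 lies at chr9:46202652-46202673 on the plus strand of GRCm38 (mm10). In the GENCODE annotation it falls in the 3′ UTR of the short transcript Sik3-203, at bases 2097 to 2118 of 2330, within exon 13 of 13. Of the 6 other annotated Sik3 transcripts, 0 hold the site in an exon, 4 span it within an intron and 2 do not reach it. The site of crRNA 1, a second spacer against the same transcript, starts upstream at the last base of the stop codon, at chr9:46202074-46202095. The NT spacer matched no annotated transcript.

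Sik3 fell in every crRNA 8 library. Its level was 1.50, 1.27 and 0.940 FPKM in crRNA 8 replicates 1, 2 and 3. In NT replicates 1, 2 and 6 it was 7.37, 9.04 and 7.53 FPKM. The highest crRNA 8 library thus lay far below the lowest NT library. The means were 1.23 ± 0.279 and 7.98 ± 0.921 FPKM, which left 15.5% of the NT level. On the log2(FPKM + 0.5) scale used for all fold changes, which understates the change of low genes, the difference was -2.30 ± 0.0886 (SE, limma, adjusted p = 2.76e-15). An exact 2-sided permutation test of the 3 against 3 libraries gave p = 0.1, the smallest its 20 arrangements allow. The difference was -2.21 within the LDK libraries and -2.48 within the LDL pair. The values count reads of all Sik3 transcripts together, so the short and the long transcript were not told apart.

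**Figure D1:**
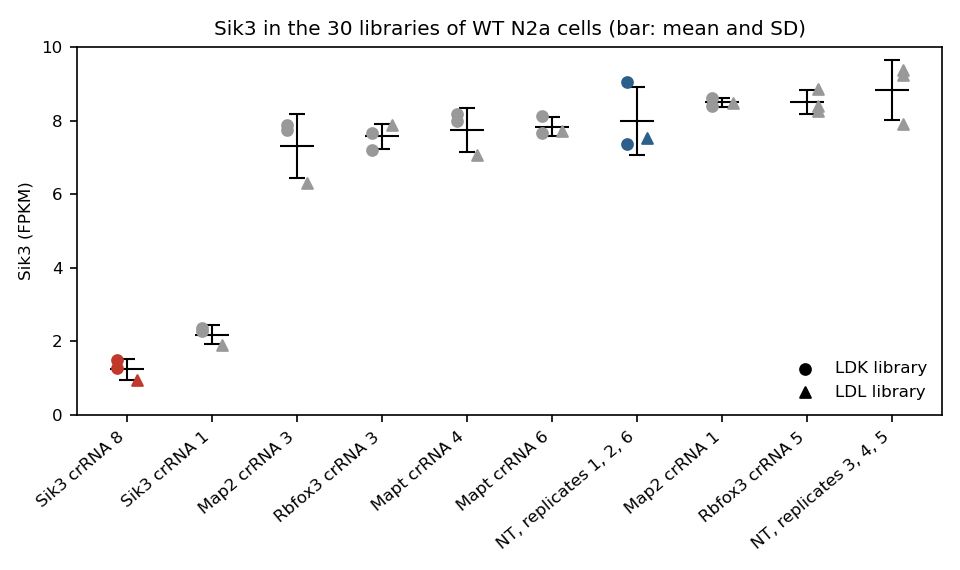
Sik3 level in FPKM (vertical axis, from 0) in each of the 30 WT libraries, by crRNA, with circles for LDK and triangles for LDL libraries and bars for the group mean and SD. The 3 crRNA 8 libraries lie between 0.940 and 1.50 FPKM, below the crRNA 1 libraries (1.88 to 2.37) and below all others, whose group means run from 7.30 to 8.84.

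Across the other crRNAs of WT cells, only crRNA 1 libraries came near this level. Sik3 then averaged 2.18 ± 0.260 FPKM with crRNA 1, and each crRNA 8 library lay below each crRNA 1 library, with a difference of -0.64 between the groups (limma, adjusted p = 0.000249). The crRNAs against Map2, Mapt and Rbfox3, which encode neuronal proteins, left Sik3 at group means of 7.30 FPKM (Map2 crRNA 3) to 8.50 FPKM (Map2 crRNA 1 and Rbfox3 crRNA 5). Each of those groups, and the NT libraries of the other experiment set at 8.84 ± 0.814 FPKM, overlapped the NT range of 7.37 to 9.04 FPKM.

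Apart from Sik3, no tested gene of the SIK and CREB lists reached a 2-fold change in RNA level at an adjusted p under 0.05 in limma. The phosphorylation and location of the proteins were not measured. In this comparison 42.9% of all genes tested passed the threshold for a change in level (limma, Benjamini-Hochberg adjusted p under 0.05), mostly by small amounts, and counts within any list are to be read against that share. Of the 19 kinases listed for the SIK and AMPK-related family and the LKB1 complex, 16 were tested. Besides Sik3 itself, Stk11 and Mark3 fell, Sik1 and Prkaa1 rose, and 11 did not pass. Sik1, the family member induced by CREB, was at 10.3, 11.0 and 10.7 FPKM with crRNA 8 and 8.25, 7.79 and 8.72 FPKM with NT. Its groups did not overlap, and it rose by 0.35 ± 0.0740 on the log2 scale (SE, adjusted p = 0.000518). Sik2, the remaining salt-inducible kinase, was at 2.01 ± 0.420 and 2.01 ± 0.0836 FPKM. Stk11 fell from 38.2 ± 1.01 to 32.8 ± 0.900 FPKM. The AMPK catalytic subunit Prkaa1 rose by 0.12 and the microtubule affinity kinase Mark3 fell by 0.16 on the log2 scale.

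Among 19 SIK substrates and partners, 6 rose, 1 fell and 12 did not pass, with a median log2 difference of 0.02 against 0.01 over all genes tested. The CRTC coactivators Crtc1, Crtc2 and Crtc3 differed from NT by -0.13, 0.06 and -0.04, and none passed. Without NT replicate 1 the list held 3 risers. Of the class IIa deacetylases, Hdac4 (0.30) and Hdac7 (0.26) rose, while Hdac5 (0.06) and Hdac9 (-0.10) did not pass. The call of Hdac4 was lost when crRNA 8 replicate 1 or 3, or NT replicate 1 or 6, was left out (differences of 0.21 to 0.27). Prkar2b, a regulatory subunit of protein kinase A, was the largest riser of the list, from 10.5 ± 0.607 to 15.9 ± 0.548 FPKM. The regulatory subunit Prkar2a was the member that fell, by 0.28 on the log2 scale. Ywhah, which encodes 14-3-3 eta, rose from 171 ± 7.77 to 218 ± 13.7 FPKM.

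CREB and MEF2 genes changed in both directions. Of 8 tested CREB and MEF2 factors and their coactivators, Mef2d rose (25.9 ± 2.66 to 34.3 ± 1.21 FPKM), Creb3 and Crebbp fell, and Creb1, Crem, Atf1, Ep300 and Mef2a did not pass. The adjusted p of Crebbp, 0.0443, lay close to the threshold and its call was lost in 5 of 6 fits that left out a library, at differences of -0.46 to -0.34. Of 17 tested CREB target genes, 6 rose, 2 fell and 9 did not pass, with a median of 0.03. Vgf, a granule neuropeptide precursor, was at 890, 870 and 864 FPKM with crRNA 8 and 623, 610 and 617 FPKM with NT, so all crRNA 8 libraries were higher (0.50 ± 0.0376, adjusted p = 3.09e-10). The granin Scg2 rose from 247 ± 8.51 to 305 ± 9.27 FPKM, and the phosphodiesterase gene Pde4d rose by 0.56. Its relative Pde4b and the helix-loop-helix inhibitor Id3 fell by 0.46 and 0.32. Fos, Dusp1, Per1 and Per2 differed by -0.12, -0.07, -0.15 and 0.03 and did not pass.

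Over the whole transcriptome, 11553 genes were tested, and 126 of them (1.09%) both passed and changed by at least 2-fold. Of these, 44 were higher with crRNA 8 (0.381%) and 82 were lower (0.71%). At an adjusted p under 0.05 without a fold limit, 2504 genes were higher (21.7%) and 2449 lower (21.2%). Most differences were small. The median fold of the genes that passed was 1.25, and 4287 of 4953 (86.6%) stayed under 1.5-fold. The number of lower genes depended on how low values were handled, at 53 with a pseudocount of 1 and 136 with a pseudocount of 0.1. With all 6 NT libraries of WT cells as the control, 72 genes were higher and 170 lower.

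**Figure D2:**
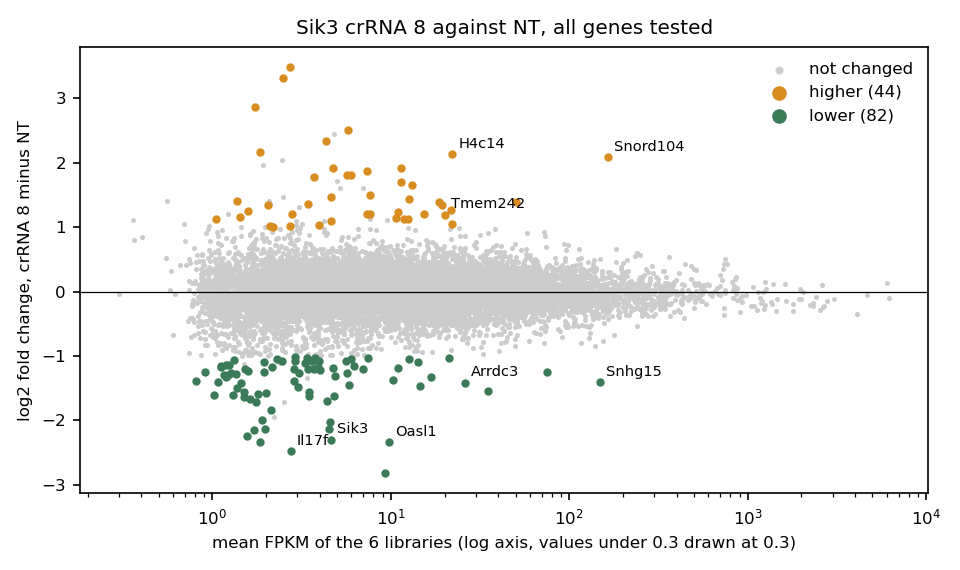
Each point is 1 of the 11553 genes tested, with the mean FPKM of the 6 libraries on the horizontal log axis and the log2 difference of crRNA 8 from NT on the vertical axis. The 44 genes that were 2-fold higher are orange and the 82 lower genes green, and most of the others lie close to 0.

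The changed genes fell into a few classes. Replication-dependent histone genes made up 13 of the 44 higher genes out of 44 tested, snoRNA genes 9 of 90 tested and microRNA genes 7 of 117 tested. Other named genes were 8 of the 44 and 68 of the 82 lower genes. At the adjusted threshold 0 histone, snoRNA or microRNA genes were 2-fold lower, and at an unadjusted p under 0.05 in limma 1 microRNA gene was. The median exon length, where the annotation gave one, was 397 bases for the higher genes (43 with a length), 2499 for the lower genes (81 with a length) and 4335.5 for all tested. Genes shorter than 1000 bases made up 81.4%, 14.8% and 5.01% of these sets. In the NT group, 46 of the 82 lower genes had a mean under 5 FPKM, and in the crRNA 8 group 12 of the 44 higher genes did.

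Several of the largest falls besides Sik3 were in genes of low level. Il17f, which encodes an inflammatory cytokine, was at 0.365, 0.956 and 0.226 FPKM with crRNA 8 and 5.33, 3.94 and 5.64 FPKM with NT. These values stood for 7, 15 and 4 reads against 89, 70 and 82, so the groups were far apart on few reads (-2.48 ± 0.246, adjusted p = 3.10e-08). Its relative Il17c was listed at 0, 0.939 and 0.0924 FPKM against 3.83, 3.87 and 2.37 FPKM, or 0, 9 and 1 reads against 39, 42 and 21. Among predicted genes, whose function is not known, Gm11517 fell further, from 16.6 to 1.92 FPKM (-2.82).

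Oasl1 and Rsad2, genes of the antiviral response, fell from higher levels. Oasl1, an antiviral gene that interferon switches on, was at 2.76, 2.73 and 3.17 FPKM with crRNA 8 and 17.3, 15.7 and 16.6 FPKM with NT. No crRNA 8 library came near an NT library (-2.33 ± 0.116, adjusted p = 3.91e-13). Rsad2, which encodes the antiviral enzyme viperin, was at 1.28, 1.25 and 2.04 FPKM against 7.55, 7.95 and 7.24 FPKM (-2.02). Pygm, the muscle glycogen phosphorylase, was at 1.43, 1.44 and 1.20 FPKM against 7.33, 7.99 and 7.59 FPKM. Pygm was even within both groups, and it fell by 2.13 on the log2 scale.

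The remaining large falls ranged from -2.15 to -1.67. They were the proton pump subunit Atp6v1e2 (3.12 ± 0.170 to 0.325 ± 0.153 FPKM), galectin 3 (Lgals3, 3.53 ± 0.761 to 0.414 ± 0.155 FPKM) and the homeobox gene Rhox6 (3.31 ± 0.935 to 0.492 ± 0.385 FPKM). Lower down stood cysteine dioxygenase (Cdo1), the gonadotropin-releasing hormone precursor (Gnrh1), Vpreb3, known from B cell precursors, and Tmem236. All 12 were higher in each NT library than in any crRNA 8 library, as the rule for naming them required, and the same order held in 80 of the 82 lower genes and in 6010 of all 11553 for either direction.

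Outside the small RNA genes, 7 of the 12 largest rises were in histone genes. H4c14, an H4 gene, was at 44.2, 34.6 and 30.3 FPKM with crRNA 8 and 9.74, 7.08 and 6.75 FPKM with NT. The lowest crRNA 8 library lay above the highest NT library (2.14 ± 0.140, adjusted p = 3.72e-11). H4c2, H4c1, H4c9, H4c11, H3c11 and H2bc14 followed with rises of 1.78 to 1.20. Histone gene copies are near-identical, so reads could have been shared among them and single members are uncertain.

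Of the other large rises, 2 were long non-coding or host transcripts. Snhg10, which hosts a small nucleolar RNA, was at 15.7, 21.6 and 19.1 FPKM with crRNA 8 and 7.20, 5.89 and 6.74 FPKM with NT (1.43). Rab26os, an RNA from the strand opposite Rab26, was at 21.6 ± 0.681 and 9.14 ± 1.71 FPKM, and since the strand setting of the counting is not given, its reads and those of Rab26 could not be told apart. Tmem242, a membrane protein that takes part in building the mitochondrial ATP synthase, was at 27.3, 27.4 and 29.5 FPKM against 9.08, 14.0 and 13.4 FPKM. It rose by 1.20 ± 0.105 (adjusted p = 5.10e-09), with the NT libraries more spread than the crRNA 8 libraries.

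Tmsb4x, which encodes the actin monomer binder thymosin beta 4, was uneven among the crRNA 8 libraries. It was at 21.0 and 28.9 FPKM in replicates 1 and 2 and 5.45 FPKM in replicate 3, against 4.63, 4.16 and 4.11 FPKM with NT. The rise of 1.70 ± 0.416 (adjusted p = 0.00204) thus rested on the LDK libraries, at 2.36 within LDK and 0.37 within the LDL pair. The neuritin relative Nrn1l also differed by series, with 2.79, 2.43 and 1.29 FPKM against 0.457, 0.537 and 1.05 FPKM.

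**Figure D3:**
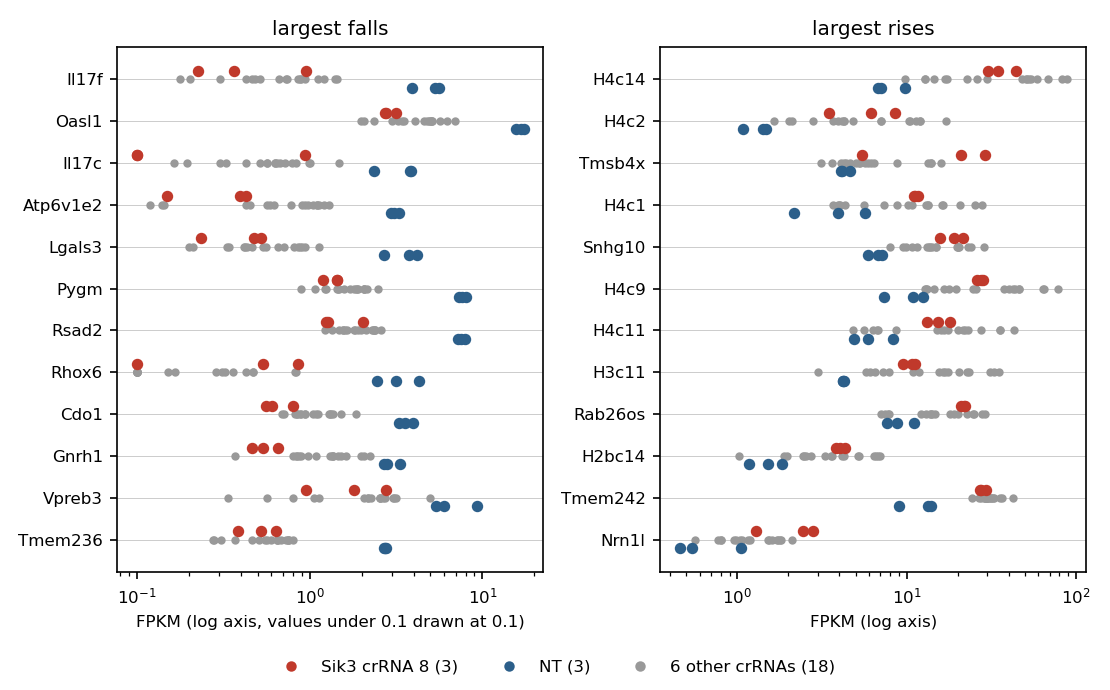
FPKM on a log axis in each crRNA 8 library (red), each NT library (blue) and the 18 libraries of 6 other crRNAs (grey) for the 12 largest falls (left) and 12 largest rises (right) among named genes, with values under 0.1 drawn at 0.1. No red point overlaps the blue points of the same gene, as the naming rule required, and Tmsb4x spreads from 5.45 to 28.9 FPKM among crRNA 8 libraries.

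As a list, the 44 tested replication-dependent histone genes rose in 22 cases and fell in 0, also 0 at an unadjusted p under 0.05, and 22 did not pass. Their median difference was 0.72, compared with 0.01 over all genes tested. Their mRNAs normally end in a stem-loop and lack a poly(A) tail, so a poly(A) library holds little of them. The summed histone level was 320 to 334 FPKM with crRNA 8 and 161 to 189 FPKM with NT. Of 45 tested G1/S genes, whose products act when histones are made, 4 rose and 22 fell. The share of cells in each cell cycle phase was not tested. The replication licensing helicase Mcm7 fell from 87.7 ± 3.16 to 58.0 ± 2.15 FPKM. Of 39 tested G2/M genes, 9 rose and 17 fell, among them topoisomerase II alpha (Top2a, a rise of 0.60) and the kinetochore gene Ndc80 (a fall of 0.67).

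Small RNA genes were measured on low counts. Of 90 tested snoRNA genes, 19 rose, 1 fell and 70 did not pass, with a median of 0.56, and in the LDK libraries alone 32 rose and 3 fell. Snord104, a box C/D guide of rRNA methylation, was at 274, 234 and 288 FPKM with crRNA 8 and 51.2, 80.9 and 56.6 FPKM with NT. It rose by 2.09 ± 0.144 (adjusted p = 7.95e-11), with no overlap between groups. Snord87 was listed at 0 in the 3 NT libraries compared and at 6.64, 2.03 and 6.28 FPKM with crRNA 8, which are only 8, 2 and 7 reads. Of 117 tested microRNA genes, 8 rose, 0 fell and 109 did not pass, and 1 was lower at an unadjusted p under 0.05. Without crRNA 8 replicate 2, 4 rose and 3 fell, and without NT replicate 1 or 2, 5 rose. The LDK libraries alone gave 19 that rose and 9 that fell. Mir6960 and Mir7660 were listed at 0 in the 3 NT libraries compared and at 4, 3 and 8 reads and 6, 2 and 2 reads with crRNA 8. With all 6 NT libraries the call of Mir7660 was lost (1.90, limma, adjusted p = 0.0628). Such values come from short gene models (61 and 63 bases) and are not mature microRNA levels.

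The hosts of snoRNAs went both ways. Of 14 tested host transcripts, 6 rose and 3 fell. Gas5 rose from 123 ± 5.10 to 175 ± 3.23 FPKM, while Snhg15 was at 75.9, 82.4 and 86.4 FPKM against 223, 206 and 220 FPKM and fell by 1.40 ± 0.0790 (adjusted p = 2.79e-12). The groups of Snhg15 were far apart at a level where depth is not limiting. Of 15 tested RNAs without a poly(A) tail, such as small nuclear RNAs, 2 rose, 3 fell and 10 did not pass, and 1 fell without crRNA 8 replicate 1 or 2 or NT replicate 2 or 6. Their summed level was 941 to 1751 FPKM with crRNA 8 and 1313 to 1348 FPKM with NT.

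Among interferon-stimulated genes more members fell than rose. Of 30 tested, 15 fell, 2 rose (0 without crRNA 8 replicate 3 or NT replicate 6) and 13 did not pass, with a median of -0.27 and a summed level of 456 to 466 FPKM with crRNA 8 and 621 to 646 FPKM with NT. Besides Oasl1 and Rsad2, the guanylate-binding protein Gbp3 fell from 5.42 ± 0.555 to 1.52 ± 0.198 FPKM. Cytokine, chemokine and other NF-kB target genes were mixed, with 5 of 17 rising (3 without crRNA 8 replicate 1 or NT replicate 6) and 6 falling. After Il17f and Il17c the largest member was the chemokine Ccl5 (2.75 ± 0.977 to 1.17 ± 0.198 FPKM). The call of Ccl5 was lost when crRNA 8 replicate 2 or 3, or NT replicate 1 or 2, was left out, at differences of -0.89 to -0.73. With all 6 NT libraries its difference shrank to -0.20 (limma, adjusted p = 0.703), and its call was also lost with a pseudocount of 0.1 and without a filter.

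Immediate early genes, which cells switch on within minutes of a stimulus, split evenly. Of 37 tested, 12 rose, 11 fell and 14 did not pass, with a median of -0.00. The matricellular gene Ccn1 was the largest riser, at 6.52, 6.59 and 6.42 FPKM with crRNA 8 and 2.40, 3.27 and 2.72 FPKM with NT. Its crRNA 8 libraries were nearly equal and all higher (1.10 ± 0.150, adjusted p = 2.98e-06). The zinc finger factor Egr1 rose from 77.5 ± 2.15 to 112 ± 3.86 FPKM, and Jund and Gadd45a by 0.46 and 0.53 on the log2 scale. The AP-1 relative Atf3 fell from 34.1 ± 2.03 to 19.5 ± 0.709 FPKM and Fosb from 8.67 ± 0.294 to 4.81 ± 0.284 FPKM. Klf10, Csrnp1, Egr3 and Trib1 fell by 0.74, 0.68, 0.65 and 0.64. The abundant members Ier2, Junb, Dusp4 and Myc differed by 0.02, 0.00, -0.01 and -0.02 and did not pass.

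Most of the tested cholesterol genes rose. Of 28 tested genes of cholesterol synthesis and uptake, 17 rose, 2 fell and 9 did not pass, with a median of 0.27 and a summed level of 889 to 907 FPKM against 721 to 739 FPKM. Srebf1, which encodes a sterol-regulated transcription factor, was at 53.3, 52.4 and 49.4 FPKM with crRNA 8 and 32.4, 30.7 and 31.2 FPKM with NT. All crRNA 8 libraries were higher (0.71 ± 0.0433, adjusted p = 1.31e-11). The sterol isomerase Ebp rose from 6.56 ± 0.944 to 10.7 ± 0.426 FPKM.

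Most genes that build ribosomes fell. Of 49 tested ribosome biogenesis genes, 32 fell, 3 rose and 14 did not pass, with a median of -0.24. Ubtf, the factor that opens rRNA genes for polymerase I, was at 21.6, 22.5 and 23.2 FPKM with crRNA 8 and 40.2, 41.0 and 42.5 FPKM with NT. The groups were well apart (-0.86 ± 0.0411, adjusted p = 1.83e-13). Imp4 and Bysl, which process the small subunit, fell by 0.93 and 0.68 on the log2 scale. Among 68 translation factors, 28 fell and 8 rose, led by the kinase Eif2ak1 (a fall of 0.56) and Eif6 (a fall of 0.55). Of 37 proteasome subunits, 18 fell and 5 rose, but 10 fell without NT replicate 1 and 11 without crRNA 8 replicate 3, and only 2 rose without crRNA 8 replicate 1 or NT replicate 2.

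Ribosomal proteins themselves were mixed. Of 77 tested cytosolic ribosomal proteins, 28 rose and 13 fell, with Rps28 (29.0 ± 2.20 to 48.4 ± 4.72 FPKM) and Rps29 (13.6 ± 1.94 to 22.4 ± 1.36 FPKM) among the largest risers. Summed, this list was lower with crRNA 8, at 39603 to 41596 FPKM against 42201 to 45827 FPKM with NT. Of 78 mitochondrial ribosomal proteins, 9 rose (5 without crRNA 8 replicate 2) and 25 fell, and Mrpl12 fell from 149 ± 10.7 to 85.0 ± 6.19 FPKM. The respiratory chain list held 10 risers and 19 fallers of 88. Its largest riser Cox7c, a subunit of complex IV, went from 37.5 ± 6.02 to 62.2 ± 2.64 FPKM, while the muscle-type subunit Cox6a2 fell (-0.93), a call lost without crRNA 8 replicate 1 (-0.72) or 3 (-0.91) or NT replicate 2 (-0.86).

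Stress lists showed no common direction. Of 30 tested ATF4 targets, 7 rose and 4 fell, with the phosphatase subunit Ppp1r15a falling from 113 ± 2.70 to 68.8 ± 1.47 FPKM. Of 21 p53 targets, 6 rose and 8 fell, and the cell death gene Bax fell from 125 ± 6.32 to 89.3 ± 4.45 FPKM. Of 26 endoplasmic reticulum chaperones and unfolded protein response genes, 6 rose and 7 fell. Hspa5, the major chaperone of that compartment, rose from 652 ± 26.2 to 881 ± 23.3 FPKM, while calreticulin (Calr) fell from 829 ± 22.8 to 643 ± 20.9 FPKM. Cytosolic chaperones rose in 10 of 30 cases and fell in 8. Of 59 RNA decay factors, 11 rose and 15 fell, and the nonsense-mediated decay endonuclease Smg6 was at 9.98, 9.99 and 10.0 FPKM against 16.6, 16.3 and 16.8 FPKM (-0.70 ± 0.0480, adjusted p = 7.77e-11). The aminoacyl-tRNA synthetases, of which 20 of 38 were matched, rose in 4 cases and fell in 9.

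Genes of the sympathoadrenal lineage of these cells rose in 11 of 24 cases and fell in 6. Ddc, the decarboxylase that makes dopamine, was at 3.24, 2.51 and 2.99 FPKM with crRNA 8 and 9.25, 8.89 and 8.30 FPKM with NT. The groups did not overlap (-1.45 ± 0.130, adjusted p = 6.49e-09). The lineage factor Gata3 fell from 4.31 ± 0.168 to 2.68 ± 0.104 FPKM, while Hand2 rose by 0.45. Of the 9 tested N2a markers, 2 rose, 4 fell and 3 did not pass, and their sum was 1384 to 1413 FPKM with crRNA 8 and 1391 to 1443 FPKM with NT. In bulk RNA, fewer cells of a type and less RNA per cell cannot be told apart. Of 41 neuronal cytoskeleton and synapse genes, 13 rose and 9 fell, with the neurofilament gene Ina falling from 32.0 ± 1.89 to 20.3 ± 0.454 FPKM and Map1a rising by 0.54.

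**Figure D4:**
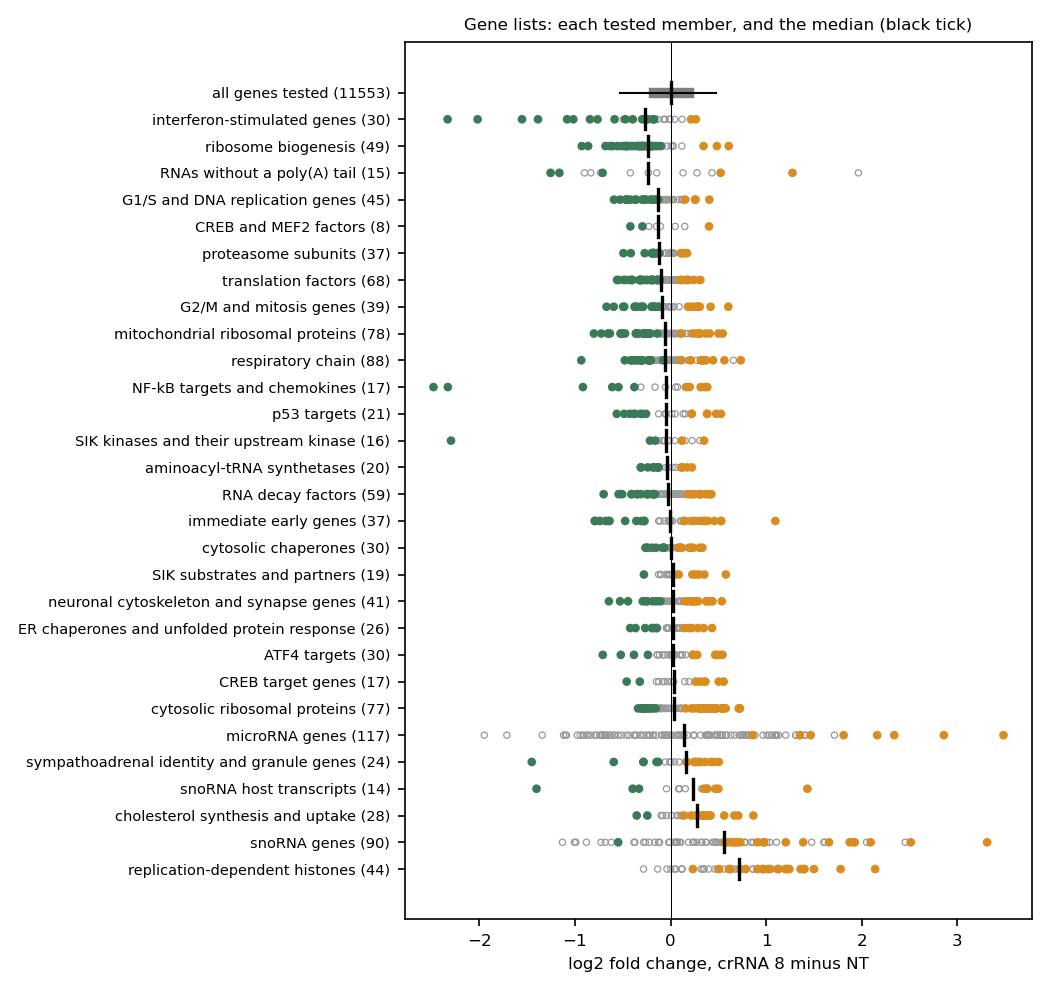
Log2 difference of crRNA 8 from NT for each tested member of each gene list, ordered by the median (black tick), with members that rose in orange, that fell in green and that did not pass as open grey circles, and the spread of all genes tested as a bar on top. The median is highest for histones (0.72) and snoRNA genes (0.56), and lowest for interferon-stimulated genes (-0.27) and ribosome biogenesis (-0.24).

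The other crRNAs of the same experiment set show where crRNA 8 stood apart. Against the mean of 6 of them (Sik3 crRNA 1, Map2 crRNAs 1 and 3, Mapt crRNAs 4 and 6, Rbfox3 crRNA 3), 1026 of 11553 genes passed (8.88%), with 274 higher (2.37%) and 752 lower (6.51%). At least 2-fold differences were found for 7 genes (0.0606%). Of these, 4 were higher (0.0346%, namely Tmsb4x, Mir6945, Snora33 and Snord66) and 3 lower (0.026%, namely Sik3, Mir8116 and 4930522P08Rik), a list whose members outside the naming rule were chosen after their values were seen. Tmsb4x was uneven among the crRNA 8 libraries. Both contrasts use the same crRNA 8 libraries, so values are set side by side. Of the 44 genes that were 2-fold higher than NT, 3 were also higher than the mean of the 6 crRNAs (median difference 0.27), and of the 82 lower genes 29 were also lower (median difference -0.31). Levels with the other crRNAs were not uniform. H4c1, H4c11 and Rab26os differed from NT by 0.14, -0.01 and 0.04 with Sik3 crRNA 1, by 0.22, 0.08 and -0.01 with Map2 crRNA 1, and by 2.57, 2.51 and 1.54 with Rbfox3 crRNA 3.

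Several genes with large changes against NT lay within the range of the other crRNAs. Il17f, at 0.226 to 0.956 FPKM with crRNA 8, ranged from 0.179 to 1.43 FPKM in the 18 other libraries, and Rsad2, at 1.25 to 2.04, from 1.22 to 2.58 FPKM. H4c14, at 30.3 to 44.2 FPKM with crRNA 8, ranged from 9.85 to 88.4 FPKM. Tmem242, at 27.3 to 29.5 FPKM with crRNA 8, ranged from 24.2 to 42.7 FPKM, all above the highest NT library at 14.0. Among the 24 genes with the largest changes, Tmsb4x was higher than the mean of the 6 other crRNAs (1.17, limma, adjusted p = 0.0212). Oasl1 (-0.43), Cdo1 (-0.44) and Gnrh1 (-0.70) were lower than that mean. Each of these genes still overlapped the range of the 18 other libraries. Oasl1 was at 2.73 to 3.17 FPKM with crRNA 8 and at 1.98 to 2.35 FPKM with Map2 crRNA 1.

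For some named genes the crRNA 8 libraries lay outside the range of all 18 others, as the rule for naming them required. Arrdc3, an arrestin-domain protein that restrains adrenergic receptor signalling and glucose uptake, was at 13.5, 14.5 and 13.7 FPKM with crRNA 8. The 18 other libraries ran from 15.4 to 24.6 FPKM and the NT libraries stood at 39.4, 36.7 and 37.5. The crRNA 8 group was thus the lowest of the 3 sets (-0.52 against the other crRNAs, limma, adjusted p = 1.52e-10, and -1.41 against NT). Arrdc3 differed from NT by -1.17 with Sik3 crRNA 1 and -1.23 with Map2 crRNA 1. With the rest of the other crRNAs the difference was -0.82 to -0.63. Pgam2, the muscle form of phosphoglycerate mutase, was at 2.71, 2.98 and 2.13 FPKM, against 3.28 to 6.42 FPKM in the others (-0.69, adjusted p = 0.000832). Lower values were also found for Mrvi1 (-0.50), Bend3 (-0.47), Skida1 (-0.47) and Tmem150c (-0.45), and Mrvi1 did not pass against NT (-0.19). Its call against the other crRNAs was lost without crRNA 8 replicate 2 (-0.45). Against crRNA 1 alone, Pgam2 and Arrdc3 passed. Mrvi1 (-0.33), Bend3 (-0.22), Skida1 (-0.21) and Tmem150c (-0.28) did not pass against crRNA 1 (limma, adjusted p = 0.0603 to 0.345).

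In the other direction, Pfn2, which encodes the neuronal actin binder profilin 2, was at 118, 126 and 122 FPKM with crRNA 8. Its 18 other libraries ran from 93.3 to 111 FPKM and its NT libraries from 72.4 to 76.1, so the order was the reverse of that for Arrdc3 (0.27, adjusted p = 0.000110). Rpl35a, a protein of the large ribosomal subunit, was at 20.4, 18.6 and 20.7 FPKM, against 8.95 to 16.8 FPKM in the others (0.61, adjusted p = 2.51e-05). The neurexophilin Nxph4 (0.35), the respiratory chain assembly factor Higd2a (0.29), the receptor Gpr3, which raises cyclic AMP (0.23), and the mitochondrial aldehyde dehydrogenase Aldh2 (0.22) were higher by smaller amounts. The call of Gpr3 was lost without any 1 of the crRNA 8 replicates (0.22 to 0.24), and that of Higd2a without replicate 3 (0.24). Against crRNA 1 alone, Pfn2 (0.27) and Higd2a (0.34) passed. Rpl35a (0.33), Nxph4 (0.18), Gpr3 (0.14) and Aldh2 (0.20) did not pass against crRNA 1 (limma, adjusted p = 0.0618 to 0.489).

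**Figure D5:**
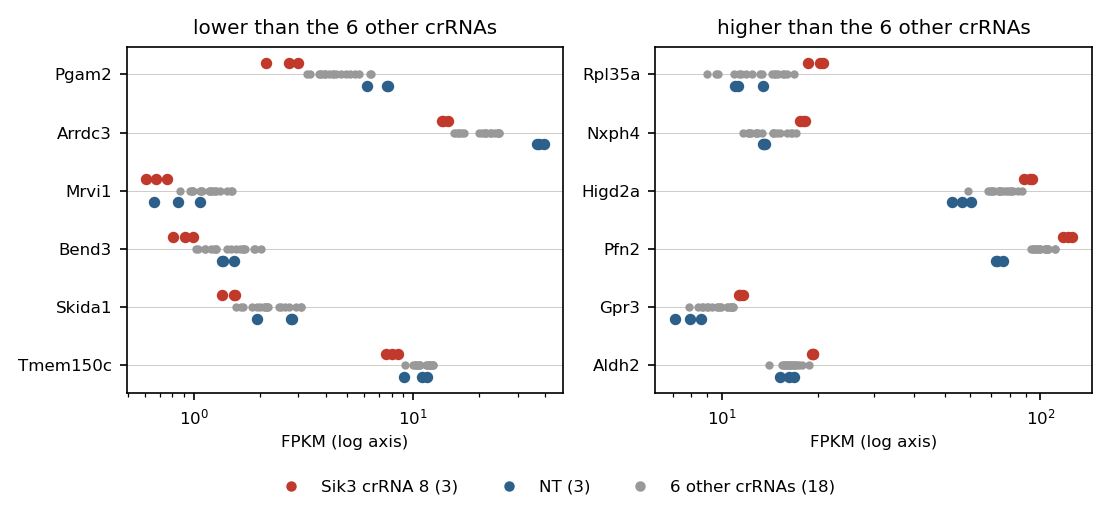
FPKM on a log axis for 12 named genes, with crRNA 8 libraries in red and the 3 NT libraries in blue. Grey points are the 18 libraries of the 6 other crRNAs. The rule for naming these genes required crRNA 8 libraries outside all 18. Arrdc3 and Pgam2 lie below both other sets and Pfn2 and Rpl35a above both.

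Among the lists, 13 of 28 cholesterol genes were higher than the mean of the 6 other crRNAs, against 2.37% of all genes. In this list 0 were lower (1 at an unadjusted p under 0.05 in limma), against 6.51% of all genes. Comparisons with the 6 others in this paragraph are with their mean. Srebf1 was higher than the 6 others by 0.26 (adjusted p = 3.33e-05). Against crRNA 1 alone, 0 members were higher, also 0 at an unadjusted p under 0.05, and 3 lower. Of the CREB targets, 3 were higher than the 6 others and 1 lower, with Vgf 0.30 higher (adjusted p = 7.14e-07) and Nr4a1, an orphan nuclear receptor of the CREB targets, 0.28 higher (adjusted p = 0.00183). Of the histones, 0 of 44 were higher and 1 was lower, with 1 and 3 at an unadjusted p under 0.05. Ribosome biogenesis genes were lower in 9 of 49 cases and higher in 0 (1 unadjusted), and neuronal genes lower in 11 of 41 and higher in 4.

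The spacers against Sik3 differed in few genes. Against crRNA 1, 302 genes passed (2.61%), with 176 higher (1.52%) and 126 lower (1.09%). At 2-fold, 12 were higher (0.104%) and 0 lower (0%), and 25 and 4 at an unadjusted p under 0.05 in limma. Among named genes H4c1 (1.36), H4c11 (1.25), Rab26os (1.17) and Tmsb4x (1.61) were higher, and Pgam2 (-0.99) was lower. H4c1 was at 11.8, 11.1 and 11.2 FPKM with crRNA 8 and at a mean of 4.10 FPKM with crRNA 1, beside an NT mean of 3.93 FPKM. Of 77 cytosolic ribosomal proteins 20 were higher than with crRNA 1 and 0 lower, also 0 at an unadjusted p under 0.05, and of 88 respiratory chain genes 9 were higher and 0 lower, again 0 unadjusted. Rps28 was 0.80 higher (adjusted p = 0.000247) and Rps29 0.70 higher (adjusted p = 0.00171). The call of Tmsb4x was lost without crRNA 8 replicate 1 (1.50) or 2 (1.27) or crRNA 1 replicate 1 (1.57) or 2 (1.33), and with no series term (adjusted p = 0.101) or no filter (adjusted p = 0.0866) in limma, and that of Rab26os without crRNA 1 replicate 3 (0.96).

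Apart from Sik3, no annotated transcript held a site with 1 to 3 mismatches to the spacer of crRNA 8. With 4 mismatches and no gaps, 8 genes held one, of which 4 were tested and 3 passed, beside 42.9% of all genes. Mcm8, a DNA repair helicase, was lower with crRNA 8 (13.9 ± 0.943 to 11.3 ± 0.0796 FPKM, a fall of 0.29, adjusted p = 9.94e-05). It was also lower than the mean of the 6 other crRNAs (-0.23, adjusted p = 0.000705). The synaptic vesicle gene Vamp1 and the zinc finger gene Zfp335 were higher by 0.27 and 0.28, and Pacs2 did not pass (-0.07). Whether the 4-mismatch sites are bound was not tested.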

How the data were processed

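Trizol-extracted RNA was turned into libraries with a VAHTS kit and read in pairs. The authors trimmed reads (Trim Galore, after FastQC), mapped them to mm10 (Subread), counted them per gene (featureCounts) and deposited FPKM. The sources used here give no tool versions, annotation or strand setting. The authors used DESeq2 on their counts, which were not used here.

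The deposited table of 25239 genes held 30 WT libraries. Testing was limited to Sik3 and genes averaging 1 FPKM or more. A linear model of log2(FPKM + 0.5) was fitted over the 30 libraries (limma 3.58.1, R 4.3.3) with group and series as terms, the 3 NT libraries of the other experiment set as a group of their own, and variances following the mean. This left 19 residual degrees of freedom. Tests were 2-sided with Benjamini-Hochberg adjustment over 11553 genes. An adjusted p under 0.05 marked a gene that rose or fell, and a difference of at least 2-fold as well marked a changed gene. The script was tested on simulated data.

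Reads behind low FPKM values were recovered for 40 named genes from the smallest gene length that gave whole reads in all WT libraries (within 0.02 reads plus a share of 0.0003), and depth was estimated from the same steps. Across the 6 compared libraries, 96.2% to 99.1% of small RNA values came out whole. Such reads cover counting error only.

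The crRNA 8 spacer was searched on the sense strand of annotated GRCm38 transcripts, with up to 4 mismatches. The members and the 31 gene lists were chosen with earlier results of these data known, and no list was tested. Lists are described by counts and medians.

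Named genes were Sik3, the 12 largest rises and falls against NT, the 6 largest each way against the 6 other crRNAs and the 4 largest each way against crRNA 1. Each needed an adjusted p under 0.05 and no overlap between the crRNA 8 libraries and those compared. Predicted and small RNA genes were passed over and described as classes, the 2 largest of each being eligible. From each list the 3 largest changes were eligible, and members of the SIK pathway and immediate early lists at any level. Scg2, Crtc and other SIK pathway members fall under the last part of the rule, and Mcm8, Vamp1, Zfp335, Pacs2 and the small RNA genes that were 2-fold apart from the other crRNAs were named after their values were seen. Alternatives were other pseudocounts and filters, rescaling, no series term, either series alone, the 6 libraries alone, all 6 NT libraries, a replicate block, and leaving out each library. Leaving out libraries in the contrasts with other crRNAs was added after seeing the data.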

Additional observations from a re-analysis of the deposited data

Results flagged for a closer look

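Sik3 and the genes named as the 4 largest each way against crRNA 1 were flagged in a direct test of both Sik3 crRNAs (limma, log2 scale). These were Sik3 (-0.64, adjusted p = 0.000249), Tmsb4x (1.61), H4c1 (1.36), H4c11 (1.25), Rab26os (1.17), Pgam2 (-0.99), Platr26 (-0.87), Rnf223 (-0.78) and Tnnt1 (-0.73). Passing this test was part of the naming rule for all but Sik3. Over all genes tested, 302 of 11553 passed it (2.61%), other named genes among them. The adjusted p-values of Tmsb4x, Platr26, Rnf223 and Tnnt1 were 0.0388, 0.0452, 0.0416 and 0.0483. Their calls were lost when single libraries were left out, at 1.27 to 1.57 for Tmsb4x, -1.01 to -0.70 for Platr26, -0.90 to -0.59 for Rnf223 and -0.81 to -0.62 for Tnnt1. All 4 calls were also lost with no series term (limma, adjusted p = 0.0522 to 0.101) and without a filter on low values (adjusted p = 0.0866 to 0.0933).

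Among the 6 NT libraries of WT cells, a single library stood apart from the other 5 in 3 of 44 genes examined. These 44 were named genes, many of them chosen by values in NT replicates 1, 2 and 6, so a chance rate does not apply. For all 3 genes the library belonged to the other experiment set. The library that stood apart was at 12.5 FPKM for Oasl1, at 1.31 FPKM for Mir6960 and at 5.31 FPKM for Mir7660. Both microRNA genes were at 0 in NT replicates 1, 2 and 6, and their values stand on few reads.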

How the results depend on the processing

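Sik3 differed from NT by -2.38 to -2.21 when single libraries were left out, by -2.48 in the LDL pair alone, and by -2.30 with the replicate block. Leaving out a library gave 42 to 53 higher and 88 to 94 lower genes against NT, 0 to 3 and 1 to 6 against the mean of the 6 other crRNAs, and 7 to 12 and 0 to 1 against crRNA 1. Against NT, lower genes numbered 136 with a pseudocount of 0.1, 53 with a pseudocount of 1 and 138 without a filter, and a minimum mean of 5 FPKM left 27 higher and 23 lower genes. With all 6 NT libraries, 72 were higher and 170 lower. Against the 6 other crRNAs, 6 were lower with a pseudocount of 0.1 and 2 higher at a minimum of 5 FPKM. Against crRNA 1, 3 were lower with a pseudocount of 0.1 and 7 higher with no series term. The cause of these shifts was not tested, other than that fewer genes were tested at 5 FPKM and more without a filter. Mir1938 reversed in the LDL pair alone (-0.021, compared with 2.34). Rescaling to equal medians moved the median of all genes by less than 0.1. Of 117 named genes besides Sik3, all stayed on the same side of the threshold against NT under rescaling, no series term, a pseudocount of 1 and the replicate block. In the LDK libraries alone 10 lost a call, and 4 to 6 did with a library left out.

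Same-numbered or same-series crRNA 8 and NT libraries correlated in their deviations at 0.0543, 0.0877 and 0.187, and other combinations at -0.138 to 0.0526. Each library correlated best with its own block, a hint from the data only. With the replicate block 44 genes were higher and 84 lower. Depth limits the genes under 1 FPKM and the small RNA genes, where few reads stand behind a value.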
